A study of Mus musculus with 2 samples.

Results

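The 38 genes described here are interferon-stimulated genes, whose transcripts accumulate in cells that sense an interferon. They were chosen by name, with earlier results of these data known, and all 38 were found among the 33696 features of the count tables. They were measured in 2 droplet libraries made with 10x Genomics 3′ chemistry, 1 from Shank3-/- mice given vehicle (labelled MOCK) and 1 from Shank3-/- mice given fluconazole, an antifungal azole, in their drinking water for 2 weeks. Both groups lack the postsynaptic scaffold Shank3 by label, and no library from mice with intact Shank3 was analysed here. The sample labels name brain as the tissue and the design text names prefrontal cortex. The number, age and sex of the mice are not given in the sources used here. Because the design text speaks of cells and nuclei and the extraction text of nuclei alone, droplets are called barcodes.

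With 1 library per treatment there is no replicate, so no test was possible and every difference below is one between 2 libraries. A level is given as CPM, the unique molecular identifiers (UMIs) of a gene per 1000000 UMIs of all genes in a cell class, and a ratio is fluconazole over vehicle on the log2 scale. Intervals are 95% and cover counting error only, with UMIs treated as independent draws. The vehicle library held 14924 barcodes and 76891692 UMIs and the fluconazole library 12637 barcodes and 78380009 UMIs. After filtering, 12892 and 10610 barcodes remained, with medians of 4327 and 5258 UMIs, and 92319 and 81897 of their UMIs belonged to the 38 genes. The libraries shared 45 barcode sequences. Shank3 transcripts were counted in both libraries and were at 71.3 and 79.8 CPM in glutamatergic neurons, so 3′ counts do not check the genotype.

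Type I interferons bind a receptor of IFNAR1 and IFNAR2, which acts through the kinases JAK1 and TYK2. These kinases activate a complex with STAT2 and IRF9 that binds the interferon-stimulated response element (ISRE) near its target genes. Interferon gamma uses another receptor, and its signal reaches a different element, the gamma-activated site (GAS). Many of the induced proteins block steps of viral replication, and several, among them IRF7 and USP18, strengthen or restrain the signal itself.

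RefSeq promoter windows were examined because the shared element is what joins these genes. Of the 38 genes, 29 had a RefSeq window of 300 bases in mouse genome build GRCm38.p6. A window ran from 250 bases before to 50 after a start site listed for the gene, which is not always the gene's first base. The ISRE core, searched as GAAANNGAAA on both strands, was present in 18 of the 32 windows of these 29 genes (56.25%), which belong to 17 genes, against 1131 of 32851 windows of all genes (3.44%). The GAS core, searched as TTCNNNGAA, was present in 7 of the 32 (21.9%), against 8.30% of all windows. A match is a description of letters and not a measured binding site.

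The windows below were chosen because their genes carry the results that follow: Ifit1, Ifit3, Ifit3b, Isg15, Bst2 and Rsad2 differed by at least 1.5-fold, with intervals on one side of 1, in 2 or more cell classes, and Gbp2 and Igtp met that rule in none. Only windows with a match are printed. Each is written 5′ to 3′ on the strand of its gene, with the ISRE core matches in capitals. Where the match lies on the other strand, the capitals show its complement read in reverse.
Ifit1: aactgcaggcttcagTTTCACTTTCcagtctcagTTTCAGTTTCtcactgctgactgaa
Ifit3: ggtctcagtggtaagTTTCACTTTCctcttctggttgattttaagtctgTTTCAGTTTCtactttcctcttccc
Ifit3b: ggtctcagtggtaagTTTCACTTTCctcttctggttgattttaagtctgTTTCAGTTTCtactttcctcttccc
Isg15: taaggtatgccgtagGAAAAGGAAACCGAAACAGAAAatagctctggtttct
Bst2: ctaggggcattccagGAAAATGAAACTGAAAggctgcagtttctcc
Rsad2: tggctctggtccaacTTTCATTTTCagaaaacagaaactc
Gbp2: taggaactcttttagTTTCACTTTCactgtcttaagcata
Igtp: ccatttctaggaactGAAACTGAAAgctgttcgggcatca

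The Ifit1 stretch is chr19:34640770-34640828 on the plus strand, with 2 matches that begin 104 and 85 bases before the start of the gene. The stretch of Ifit3 (chr19:34583358-34583431, plus strand) and that of Ifit3b (chr19:34607754-34607827, plus strand) are identical over all 74 bases. Both lie inside the span that RefSeq gives for the gene, which begins at 34583119 for Ifit3 and at 34607530 for Ifit3b. Isg15 (chr4:156200860-156200911, minus strand) has 3 overlapping matches between 78 and 66 bases before its start, and Bst2 (chr8:71537572-71537617, minus strand) has 2 that overlap. Single matches lie 120 bases before Rsad2 (chr12:26456548-26456587, minus strand), 59 before Gbp2 (chr3:142620589-142620628, plus strand) and 34 before Igtp (chr11:58199507-58199546, plus strand). The windows of 12 of the 29 genes hold no match, among them those of Ifit2, Irf7, Oasl2 and Samd9l, which also met the rule in 1 or more classes.

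The 38 genes lie on 15 chromosomes, 6 of them on chromosome 11. Ifit2, Ifit3, Ifit3b and Ifit1 follow one another on chromosome 19, with 6.6, 18.5 and 27.5 kb between them. Ifi207 and Ifi204 lie 5.5 kb apart, Rsad2 and Cmpk2 12.7 kb apart, and Dtx3l and Parp9 overlap by 0.6 kb. The transcripts of Ifit3 and Ifit3b share 575 words of 91 bases, which are 34.7% of the words of Ifit3 and 30.1% of those of Ifit3b. Reads from these stretches cannot be assigned to either gene, so their separate counts are uncertain. Mx1 is listed in RefSeq as a transcribed pseudogene. Overlapping genes such as Dtx3l and Parp9 are told apart only as far as the counting used strand, which is not given in the sources used here.

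The genes were most abundant in cells of the vessel wall and its surroundings. In the vehicle library their summed level was 4659 CPM in endothelial cells and 4303 in border macrophages, the macrophages of the meninges and perivascular spaces. It was 2663 in blood leukocytes, 2212 in mural cells (pericytes and smooth muscle cells), 1224 in fibroblasts and 956 in microglia. Astrocytes stood at 489, oligodendrocyte precursors at 346 and oligodendrocytes at 288. Neurons held the lowest sums, from 225 in neuroblasts to 259.9 in glutamatergic neurons.

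The highest vehicle level of 23 genes was in endothelial cells, of 12 in border macrophages, of 2 (Zbp1 and Slfn2) in blood leukocytes and of 1 (Ifit2) in fibroblasts. A few genes supplied much of each sum. Ifitm3, a membrane protein that restricts virus entry, made up 38.2% of the summed UMIs in endothelial cells and 53.7% in mural cells. Ifi207, a DNA-binding PYHIN protein, made up 21.3% in border macrophages, and Trim30a, a ubiquitin ligase, 12.5% in microglia. Herc6, which attaches the ubiquitin-like protein ISG15 to its targets, made up 23.3% in glutamatergic neurons.

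In the fluconazole library the sum stood lower in 10 of 13 classes. Among the larger sums it stood 1.37-fold lower in microglia, 956 against 699 CPM (log2 ratio -0.45, interval -0.49 to -0.42), and 1.39-fold lower in mural cells, 2212 against 1592 (-0.47, -0.55 to -0.40). It stood 1.24-fold lower in blood leukocytes, 2663 against 2144, 1.22-fold lower in border macrophages, 4303 against 3531, and 1.16-fold lower in endothelial cells, 4659 against 4012. All 5 intervals lay below 0. The sum stood at 1224 and 1281 in fibroblasts (0.07, -0.07 to 0.20), at 489 and 460 in astrocytes (-0.09, -0.21 to 0.04) and at 346 and 382 in oligodendrocyte precursors (0.14, -0.09 to 0.37), and these 3 intervals included 0. The difference thus varied in size by class and was larger in microglia and mural cells than in endothelial cells, with intervals that did not overlap. That comparison covers counting error only.

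**Figure D1:**
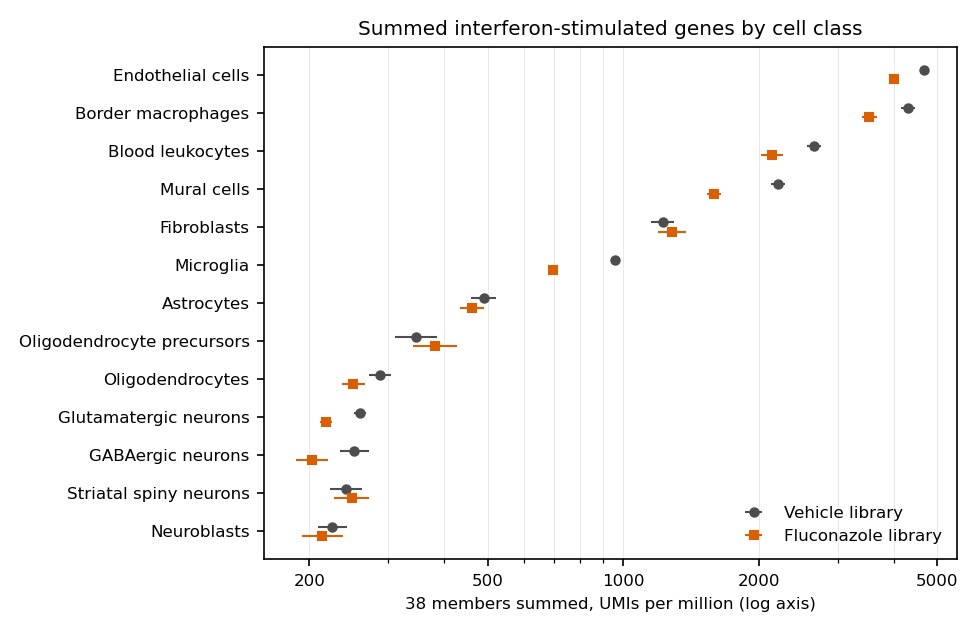
Summed level of the 38 genes in each cell class, in CPM on a log axis, with exact 95% Poisson intervals, for the vehicle library (circles) and the fluconazole library (squares). Endothelial cells and border macrophages hold the highest sums in both libraries, and the fluconazole library stands below the vehicle library in 10 of 13 classes, fibroblasts, oligodendrocyte precursors and striatal spiny neurons being the exceptions.

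In microglia, the resident macrophages of the brain, 37 of the 38 genes were measured, meaning that they had at least 20 UMIs over both libraries, and all 37 had a lower level in the fluconazole library. Among all 15577 genes measured in microglia, 50.2% stood lower and 49.8% higher. A gene was counted as past 1.5-fold when its ratio was at least that large and its interval lay on one side of 1. By that rule 17 of the 37 stood lower and 0 higher, against 2.66% and 1.65% of all genes measured, and their median log2 ratio was -0.61, where that of all genes was within 0.05 of 0. Oas2, an activator of RNA decay, was not measured, with 9 and 1 UMIs.

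The 4 IFIT proteins, which bind foreign RNA and block its translation, showed the largest difference of any role in microglia. Ifit1 had 80 vehicle and 21 fluconazole UMIs, or 5.27 and 1.40 CPM (log2 ratio -1.91, -2.68 to -1.20). Ifit2 had 171 and 52 (11.3 and 3.47 CPM; -1.70, -2.17 to -1.24), and Ifit3 had 356 and 126 (23.4 and 8.42 CPM; -1.48, -1.78 to -1.18). Ifit3b, which shares sequence with Ifit3, had 44 and 14 (-1.63, -2.61 to -0.74). All 4 were past 1.5-fold, and their sum had a ratio of -1.59.

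The genes of ISG15 conjugation differed unequally. Usp18, which removes ISG15 from proteins and also restrains the type I receptor, had 161 and 46 UMIs, or 10.6 and 3.07 CPM (-1.79, -2.29 to -1.31). Isg15 itself had 322 and 174, or 21.2 and 11.6 CPM (-0.87, -1.14 to -0.60). Herc6 had 515 and 398, a ratio of -0.35 that did not pass 1.5-fold.

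The antiviral effectors had 3 of 5 genes past 1.5-fold. Mx1, a dynamin-like GTPase gene, had 139 and 47 UMIs, or 9.15 and 3.14 CPM (-1.54, -2.05 to -1.06). Rsad2, which encodes viperin, an enzyme that makes a chain-terminating nucleotide, had 67 and 37 (-0.84, -1.46 to -0.24). Ifitm3 had 1050 and 585, or 69.1 and 39.1 CPM (-0.82, -0.97 to -0.68). Bst2, which tethers budding virus to the cell surface, had 1195 and 848 (-0.47, -0.60 to -0.35), so its interval lay below 0 but its size was under 1.5-fold. Cmpk2, the neighbour of Rsad2, had 26 and 16 UMIs and a ratio of -0.68 whose interval included 0.

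Of the transcription factors, Irf7, which drives further interferon production, stood apart from its partners. It had 170 and 60 UMIs, or 11.2 and 4.01 CPM (-1.48, -1.93 to -1.05). Stat2 had a ratio of -0.58 and Irf9 one of -0.17, and neither passed 1.5-fold. Both belong to the complex that binds the ISRE.

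Among genes of RNA sensing and decay, Oasl2, an OAS-like protein, had 165 and 62 UMIs (-1.39, -1.84 to -0.96) and Oas1a, an activator of RNase L, 56 and 26 (-1.09, -1.82 to -0.39). Ifih1, which encodes the RNA sensor MDA5, had 686 and 661 (-0.03, -0.19 to 0.12), and Eif2ak2, the kinase PKR, had a ratio of -0.19. Ifih1 and Eif2ak2 thus stood closer to 0 than Oasl2 and Oas1a did. Zbp1, a sensor of Z-form nucleic acid, had 66 and 45 UMIs, and its interval included 0 (-0.53, -1.11 to 0.04).

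Both PYHIN genes, whose proteins bind DNA, were past 1.5-fold in microglia, Ifi207 with 125 and 48 UMIs (-1.36, -1.87 to -0.87) and Ifi204 with 218 and 96 (-1.16, -1.52 to -0.81). Slfn5 (-1.13), Samd9l (-0.96) and Rtp4 (-0.95) were past it too. The 3 genes of the PARP9 complex, which modifies proteins after interferon signalling, had ratios from -0.54 for Parp14 to -0.19 for Parp9, and none passed. The guanosine triphosphatases Gbp2, Irgm1 and Igtp, which act against pathogens inside vacuoles and are classical targets of interferon gamma, had ratios of -0.36, -0.17 and -0.17. Trim30a, with 1692 and 1424 UMIs, had a ratio of -0.23, and Ifi27, a mitochondrial protein gene, had 1207 and 1174 (-0.02, -0.14 to 0.10). By role, the sums ran from -1.59 for the IFIT proteins and -1.23 for the PYHIN proteins to -0.22 for the guanosine triphosphatases.

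**Figure D2:**
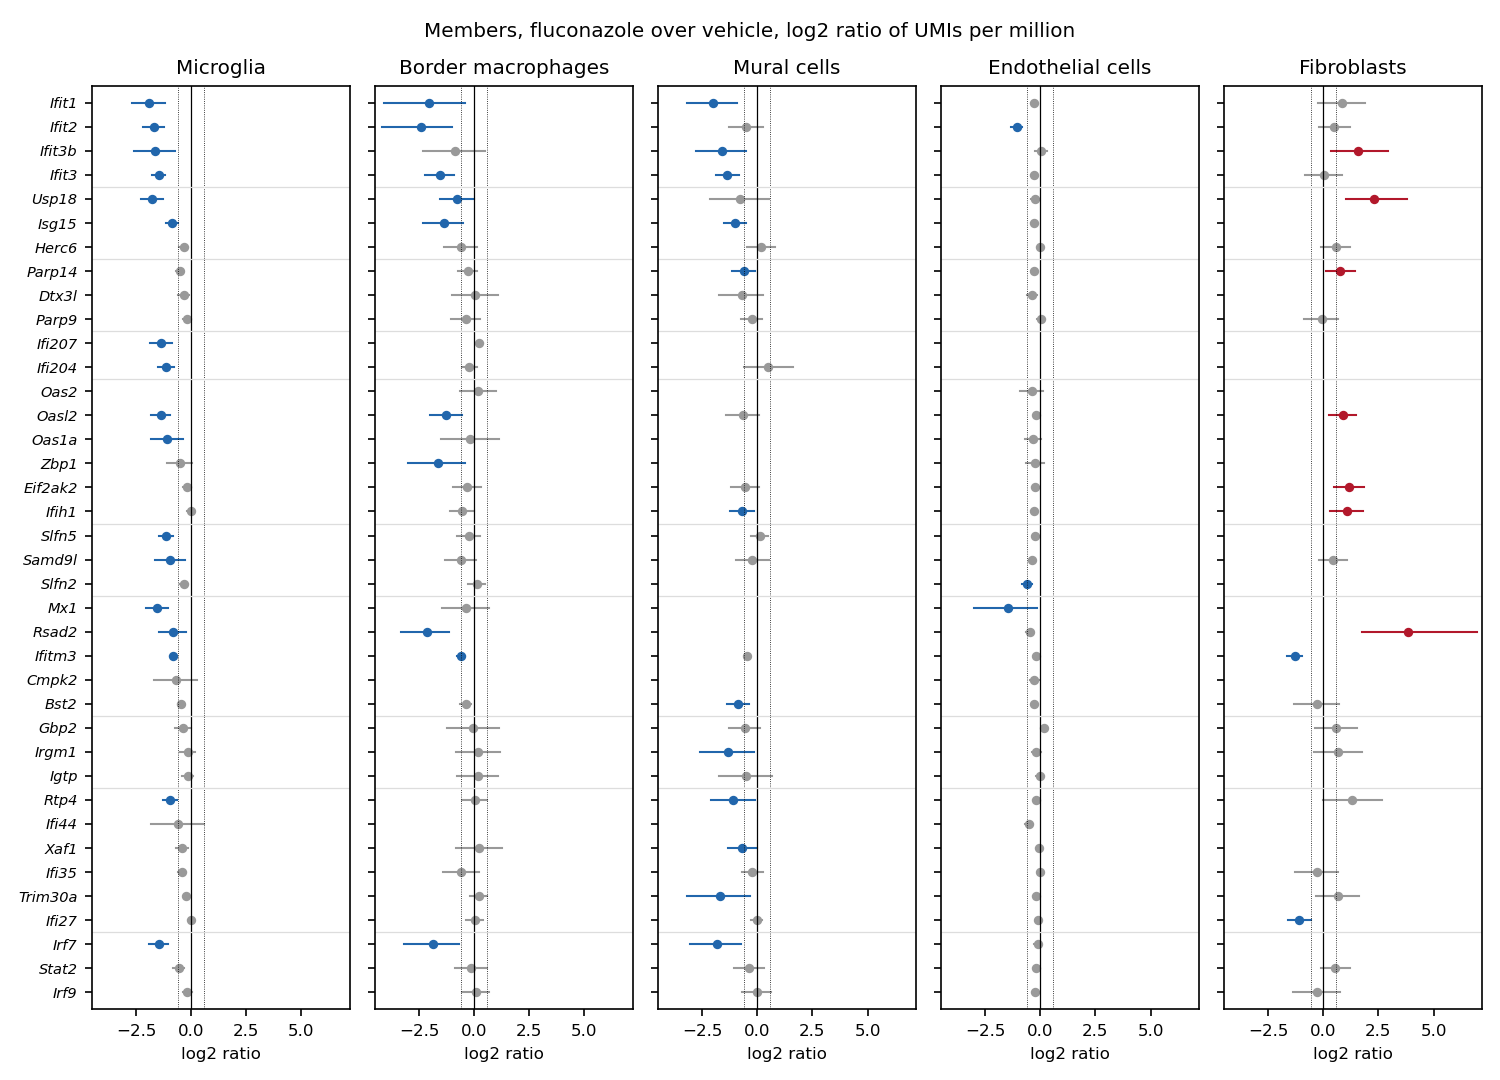
Log2 ratio (fluconazole over vehicle) of each gene with at least 20 UMIs, in 5 cell classes, with exact 95% counting intervals, with genes ordered by role and dotted lines at 1.5-fold. Blue marks genes past 1.5-fold lower and red those past 1.5-fold higher, with 17 blue in microglia, 10 in border macrophages, 12 in mural cells and 3 in endothelial cells, and 2 blue and 7 red in fibroblasts.

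The transcripts were spread unevenly over single microglial barcodes. To compare barcodes at equal depth, each was thinned to 1500 UMIs, which left 3113 vehicle and 2374 fluconazole microglia and left out 36 and 32 shallower ones. At least 1 of the 38 genes was detected in 61.4% of vehicle and 58.9% of fluconazole barcodes. At least 5 were detected in 135 vehicle barcodes, or 4.34% (exact interval 3.65 to 5.11), and in 28 fluconazole barcodes, or 1.18% (0.785 to 1.70). At least 8 were detected in 65 (2.09%) and 9 (0.379%). The libraries thus differed little in the share of microglia with any of these transcripts and more in the share with many.

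The limit of 5 was set with these data in view and is a point on a continuous range, not a cell type. Exactly 4 genes were found in 68 vehicle and 43 fluconazole barcodes, and exactly 5 in 36 and 13. For comparison, 0 of 1745 vehicle and 0 of 1496 fluconazole glutamatergic neurons had 5 or more, which allows shares of up to 0.172% and 0.201%. Such barcodes did occur in other classes of low sum, with 4 of 528 and 2 of 532 astrocytes, 1 of 327 vehicle striatal spiny neurons and 1 of 122 fluconazole oligodendrocyte precursors. Before thinning, the mean number of the 38 genes per microglial barcode was 3.27 and 3.29, at median depths of 4599 and 6011.5 UMIs per barcode.

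The microglial barcodes with at least 5 of the genes carried microglial markers like the rest. In the vehicle library their median was 307 UMIs of 13 microglial markers per 10000, against 299.5 in the other microglia, and in the fluconazole library 277 against 282. Markers of border macrophages, mural cells and fibroblasts had a median of 0 in both sets. Endothelial markers of these sets are not given here, and the part of endothelial RNA in them was not tested. Blood leukocyte markers, some of which microglia express, had medians of 9.66 and 9.24 in the vehicle library and 11.1 and 9.37 in the fluconazole library.

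These few barcodes held 30.5% of the summed UMIs in vehicle microglia and 9.66% in fluconazole microglia. Thinning served only to sort the barcodes, and sums of barcodes so sorted count all their UMIs, here and in the other classes. Within the barcodes with at least 5 of the genes the sum was 6707 CPM in the vehicle library and 5684 in the fluconazole library. Leaving such barcodes out lowers, by construction, the sum of the library that has more of them. In the remaining microglia it was 695 and 638, a log2 ratio of -0.12 (-0.16 to -0.08), compared with -0.45 for all microglia. Of 34 genes measured in those remaining microglia, 28 stood lower and 5 were past 1.5-fold, namely Ifit2, Usp18, Irf7, Oasl2 and Mx1. The share of all genes that did so in these barcodes is not given, and that of all microglia does not apply to them.

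Genes varied in how far they depended on these barcodes. The barcodes with at least 5 of the genes held 75.6% of all microglial Ifit3 UMIs in the vehicle library and 46.8% in the fluconazole library. For Ifit1 the shares were 72.5% and 23.8%, and for Isg15 60.9% and 28.2%. Bst2 had 29.3% and 6.13%, Igtp 18.4% and 3.11%, and Ifi27 5.88% and 1.79%. Ifi27, whose level in microglia was nearly the same in both libraries, was thus the gene of these least tied to them.

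**Figure D3:**
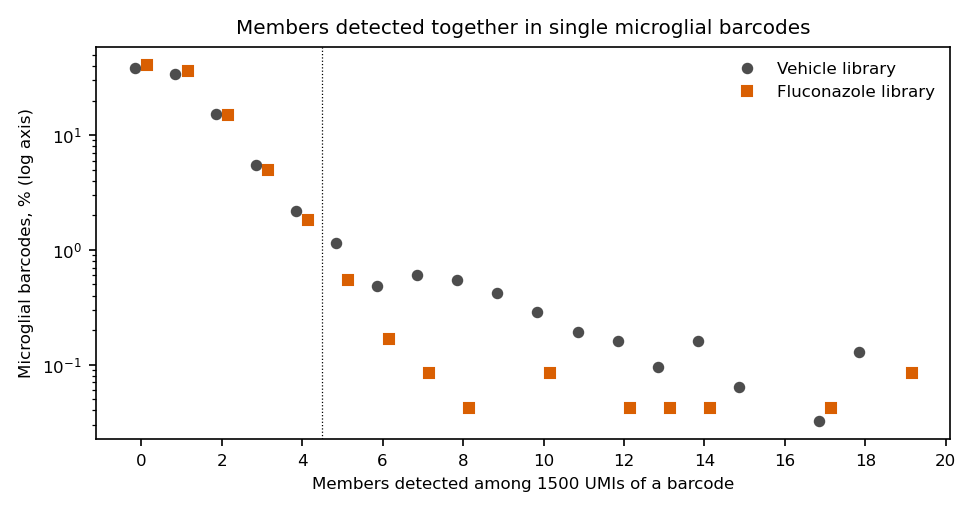
Share of microglial barcodes, in percent on a log axis, by the number of the 38 genes detected among 1500 UMIs, for the vehicle library (circles, 3113 barcodes) and the fluconazole library (squares, 2374 barcodes). The libraries lie close together up to 4 genes and separate from 5 on (dotted line), where 4.34% of vehicle and 1.18% of fluconazole barcodes lie.

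A finer clustering of all genes, at Leiden resolution 2, drew 1 microglial cluster of 98 vehicle and 13 fluconazole barcodes, or 3.09% and 0.536% of microglia, with sums of 7307 and 8008 CPM. Because these genes took part in that clustering, their level there is a description only. Without that cluster the sums in microglia were 730 and 658 (-0.15, -0.19 to -0.11).

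When the barcodes were clustered without interferon genes, microglia fell into 3 clusters of size. Cluster 0, led by the microglial gene Tmem119, stood at 951 and 673 CPM (-0.50). Cluster 2, led by the chemokine and cytokine genes Ccl4, Il1a and Tnf, stood at 1102 and 724 (-0.61), and cluster 6 at 728 and 666.5 (-0.13). The lower sum was thus present in each of the 3, and its size varied. Finer clusters did not all share it. At resolution 2 without interferon genes, cluster 5 (534 and 392 barcodes) stood at 753 and 731 CPM (-0.04, -0.14 to 0.06), while clusters 0, 2, 6 and 7 stood lower. At resolution 2 with all genes, cluster 1 (815 and 440 barcodes) stood at 656.7 and 657.7 (0.002, -0.095 to 0.099), while clusters 2, 3, 7 and 8 stood lower.

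The genes outside the list whose levels followed the number of detected members across microglial barcodes were mostly known interferon targets. Ranked by the lower of the 2 libraries' Pearson r over 3113 and 2374 barcodes, Rnf213, a large ubiquitin ligase gene, came first of 9530 genes with r of 0.397 and 0.348. Phf11b (0.301 and 0.232), Sp100, a nuclear body protein gene (0.226 and 0.228), and Ccl12, a chemokine gene (0.244 and 0.219), came next. Mx2, Slfn8, Rigi, Ogfr, Phf11d, Ddx60, Tor3a and Ly6e completed the first 12. Ly6e, in the last place, had r of 0.203 and 0.102, and such weak values in sparse counts are a ranking and no more, since the barcodes share library and depth. Of the 12, 11 are in the list of further interferon-induced genes used below, Ogfr being the exception. All 12 had lower levels in fluconazole microglia, against 50.2% of all genes measured, but the intervals of Slfn8, Rigi, Ogfr and Ddx60 included 0. Only Phf11b (-0.68, -0.97 to -0.39) passed 1.5-fold.

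Border macrophages repeated part of this pattern at a higher level. Of 36 genes measured, 25 stood lower and 10 were past 1.5-fold lower, with 0 higher, against 48.9%, 3.34% and 3.06% of all genes measured in that class. Ifit2 had 26 and 5 UMIs (-2.43, -4.17 to -1.03), Rsad2 43 and 10 (-2.16, -3.32 to -1.14) and Ifit1 16 and 4 (-2.06, -4.09 to -0.42). Counts this small leave wide intervals, and the class held 159 and 129 barcodes. Ifit3 had 79 and 28 UMIs, or 106 and 36.1 CPM (-1.55, -2.23 to -0.91).

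Irf7, Isg15 and Usp18 were past 1.5-fold lower in border macrophages too, while Stat2 (-0.14) and Irf9 (0.06) had intervals that included 0. Irf7 had 28 and 8 UMIs (-1.86, -3.21 to -0.69), Isg15 40 and 16 (-1.38, -2.31 to -0.51) and Usp18 41 and 25 (-0.77, -1.55 to -0.02). Zbp1 (24 and 8) and Oasl2 (56 and 24) were also past 1.5-fold. Ifitm3, with 690 and 468 UMIs or 925 and 604 CPM, had a ratio of -0.62 (-0.79 to -0.44). Bst2 (-0.39) and Ifih1 (-0.56) had intervals below 0 but smaller ratios.

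Ifi207 differed in direction between the macrophage classes. In border macrophages it stood at 767 and 896 CPM, slightly higher in the fluconazole library (0.22, 0.06 to 0.39), and in microglia at 8.23 and 3.21, lower. The difference between the classes was not tested. Ifi204 had a ratio of -0.22 in border macrophages with an interval that included 0, and Ifi27 one of 0.01. Ifi44 and Cmpk2 were not measured there. At least 5 of the genes among 1500 UMIs were found in 47 vehicle (31.8%) and 29 fluconazole (24.2%) border macrophages, and the sums in the rest were 2827 and 2762 CPM (-0.03, -0.14 to 0.07).

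In mural cells 29 of the 38 genes were measured, and 26 of the 29 stood lower and 12 were past 1.5-fold lower, with 0 higher, where 48.1%, 3.26% and 2.34% of all genes measured did so. Ifit1 had 30 and 10 UMIs, or 21.3 and 5.33 CPM (interval of the log2 ratio -3.20 to -0.93), Ifit3b 25 and 11 (-1.60, -2.77 to -0.52) and Ifit3 98 and 51, or 69.5 and 27.2 CPM (-1.36, -1.87 to -0.85). Isg15 had 89 and 58, or 63.1 and 30.9 CPM (-1.03, -1.53 to -0.54). Irf7 had 27 and 10 (-1.85, -3.06 to -0.75). The IFIT genes, Isg15 and Irf7 were thus past 1.5-fold in mural cells as in microglia, with the exception of Ifit2, which had 31 and 29 UMIs (-0.51, -1.29 to 0.27).

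Bst2 had 85 and 61 UMIs in mural cells (-0.89, -1.39 to -0.40), and Rtp4 (-1.09), Irgm1 (-1.34) and Trim30a (-1.69) were past 1.5-fold on fewer than 40 UMIs each. Ifih1 (-0.70), Xaf1 (-0.69) and Parp14 (-0.63) were just past it. Ifitm3, the bulk of the sum, stood at 1178 and 861 CPM (-0.45, -0.55 to -0.35). Ifi27 stood at 165 and 162 (-0.02), and Herc6, Slfn5 and Ifi204 were the 3 genes that stood higher, with intervals that included 0.

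Few mural barcodes carried many of the genes. Of 411 vehicle and 461 fluconazole mural barcodes with at least 1500 UMIs (90 and 55 shallower ones were left out), 32 (7.79%) and 7 (1.52%) had at least 5 of the genes, and these held 33.4% and 4.65% of the summed UMIs. In the remaining mural cells the sums were 1614 and 1540 CPM (-0.07, -0.15 to 0.02), and 12 of 24 measured genes stood lower, with 0 past 1.5-fold. For these remaining barcodes too the share of all genes is not given. The median of 12 mural markers per 10000 UMIs was 269 in the 32 vehicle barcodes and 297 in the others.

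In clusters made without interferon genes, the difference was larger in mural cluster 12, led by Kcnj8, Abcc9 and Vtn, genes of pericytes, than in cluster 19, led by the smooth muscle genes Tagln, Acta2 and Myh11. Cluster 12 stood at 2983 and 1862 CPM (-0.68, -0.77 to -0.59) and cluster 19 at 1364 and 1256 (-0.12, -0.25 to 0.01). Blood leukocyte markers in mural cells moved the same way, with 71.6 and 27.2 CPM over 20 markers, of which 8 and 13 were at 0. The 3 C1q genes, which microglia and macrophages express, stood at 402 and 163 CPM in mural cells, and their part in the result was not tested. Without the mural barcodes that held a UMI of any of the 20 leukocyte markers, the ratio of the sum was -0.48, with 24 of 28 genes lower and 10 past 1.5-fold. Barcodes with C1q UMIs were not left out there, and the share of all genes in this subset is not given.

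In endothelial cells 33 of 36 measured genes stood lower, but by small amounts, with a median log2 ratio of -0.24. By the 1.5-fold rule 3 stood lower and 0 higher, against 2.35% and 1.86% of all genes measured there, while 51.9% of all genes stood lower. The 3 were Ifit2, with 370 and 192 UMIs or 32.9 and 15.6 CPM (-1.07, -1.33 to -0.82), Slfn2, which restrains immune cell activation, with 433 and 309 (-0.61, -0.83 to -0.40), and Mx1, with 18 and 7 (-1.49, -2.99 to -0.16). Ifit2 stood apart from its neighbours on the chromosome. Ifit1 had 1196 and 1068 UMIs (-0.29, -0.41 to -0.17), Ifit3 1130 and 1013 (-0.29, -0.41 to -0.16) and Ifit3b 219 and 242 (0.02, -0.25 to 0.29).

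Ifitm3, found in 86.9% of vehicle and 88.2% of fluconazole endothelial barcodes, stood at 1780.4 and 1534 CPM (-0.21, -0.24 to -0.19). Isg15 stood at 164 and 132 (-0.31, -0.41 to -0.21) and Rsad2 at 75.5 and 54.0 (-0.48, -0.63 to -0.33). Depth in endothelial cells made intervals narrow, so that ratios of this size had intervals below 0 without reaching 1.5-fold. Gbp2 stood higher in the fluconazole library, at 78.9 and 87.5 (0.15, 0.02 to 0.28), and Ifi35, Igtp and Herc6 were within 0.05 of 0. Ifi204 and Ifi207, the PYHIN genes of macrophages, were not measured, with 8 and 8 and with 6 and 9 UMIs.

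Endothelial cells along the vessel tree differed in level and, less, in ratio. Cluster 4, in which 8 of 8 arterial markers were raised, stood at 5829 and 4764 CPM (-0.29, -0.32 to -0.26). Cluster 10, with 8 of 8 venous markers raised, stood at 4709 and 4225 (-0.16, -0.19 to -0.12), and cluster 1, with 4 capillary markers raised, at 3786 and 3331 (-0.18, -0.22 to -0.15). Cluster 3, with 2 capillary markers raised, stood at 4547 and 3957 (-0.20, -0.25 to -0.15). The arterial cluster thus held the highest sum in both libraries. In the clustering of all genes, arterial barcodes were split. Cluster 3 there, with 7 arterial markers raised, stood at 5837 and 4564 CPM (-0.36, -0.39 to -0.32). Cluster 28, with 8 raised, stood at 5742 and 5792 (0.01, -0.06 to 0.08). At least 5 of the genes among 1500 UMIs were found in 39.4% of vehicle and 35.3% of fluconazole endothelial barcodes. The sums in the rest stood at 3277 and 3087 (-0.09, -0.11 to -0.06), with 20 of 35 genes lower. No share of all genes is given for that rest.

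**Figure D4:**
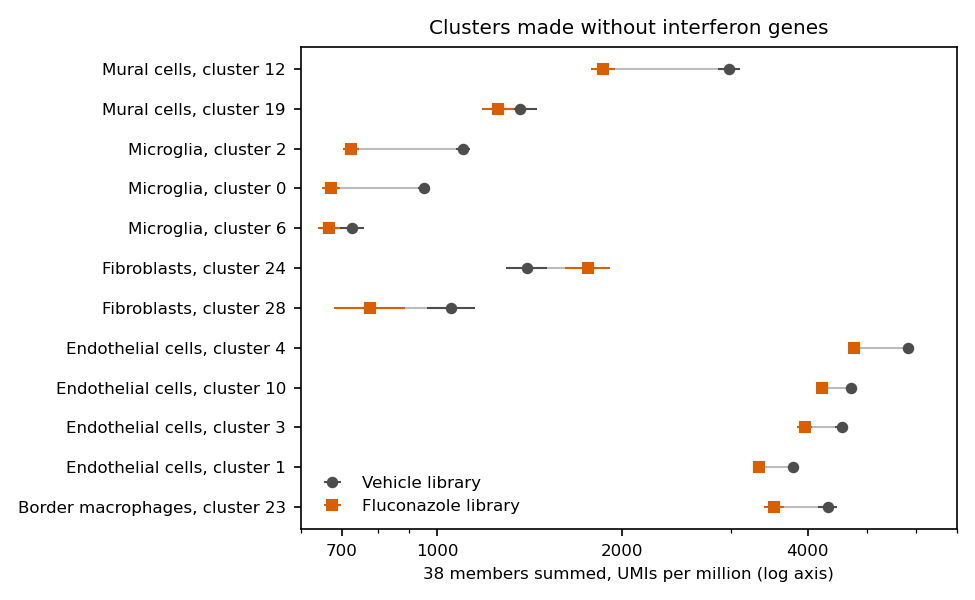
Summed level of the 38 genes, in CPM on a log axis with exact 95% Poisson intervals, in clusters of barcodes made without interferon genes, for the vehicle (circles) and fluconazole (squares) libraries joined by a line. The gap is widest in mural cluster 12 and microglial cluster 2, and fibroblast cluster 24 is the one shown whose fluconazole sum is the higher.

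Fibroblasts, the collagen-making cells of the meninges and vessels, went against the other vascular classes. Of the 38 genes 23 were measured, and of these 17 stood higher in the fluconazole library and 6 lower, with a median log2 ratio of 0.59, where 49.0% of all genes measured stood higher. Past 1.5-fold, 7 stood higher and 2 lower, against 4.11% and 6.99% of all genes measured. The class held 295 vehicle and 165 fluconazole barcodes, so most counts were below 60.

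The 7 higher genes were Rsad2, with 2 and 18 UMIs (3.83, 1.76 to 6.98), Usp18, with 7 and 22 (2.31, 1.03 to 3.78), and Ifit3b, with 9 and 17 (1.57, 0.33 to 2.92), followed by Eif2ak2 (34 and 48 UMIs; 1.15), Ifih1 (28 and 37; 1.06), Oasl2 (44 and 51; 0.87) and Parp14 (40 and 43; 0.76). The 2 lower genes were the most counted ones. Ifitm3 had 355 and 91 UMIs, or 380 and 153 CPM (-1.31, -1.66 to -0.97), and Ifi27 had 137 and 41, or 147 and 69.1 CPM (-1.09, -1.63 to -0.57). Because Ifitm3 weighs heavily in the sum, the summed level hardly differed although most genes stood higher.

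Fibroblasts with many of the genes were few. At least 5 of the genes among 1500 UMIs were found in 6 of 202 vehicle (2.97%) and 11 of 127 fluconazole barcodes (8.66%), and these held 8.15% and 39.4% of the summed UMIs. Summed over the thinned UMIs of all 202 and 127 barcodes, the genes had a log2 ratio of 0.42. Over all UMIs of these barcodes the sums were 1264 and 1209 CPM (-0.06, -0.21 to 0.08), 93 and 38 shallower barcodes being left out. Counted over all UMIs too, the sums in fibroblasts with fewer than 5 of the genes were 1193 and 778 (-0.62, -0.79 to -0.45). Of their 17 measured genes, 14 stood lower. Again the share of all genes in these barcodes is not given.

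The 2 fibroblast clusters made without interferon genes pointed in opposite directions. Cluster 24, led by Slc6a13 and Dcn, stood at 1398 and 1757 CPM (0.33, 0.16 to 0.50), and cluster 28, led by Slc47a1 and Bnc2, at 1054 and 778 (-0.44, -0.67 to -0.21). Ribosomal protein genes in fibroblasts stood at 28075 and 19322 CPM, and leukocyte markers at 94.2 and 97.8. Their part in the result was not tested.

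Astrocytes held few transcripts of most of the genes. Of 24 measured, 16 stood lower, against 53.3% of all genes measured, and 3 were past 1.5-fold lower and 1 higher, against 3.30% and 1.58%. The 3 were Ifit3 (51 and 25 UMIs; -1.20, -1.95 to -0.48), Bst2 (24 and 11; -1.29, -2.47 to -0.21) and Xaf1 (21 and 10; -1.24, -2.49 to -0.09), and Ifi35 (6 and 18; 1.42, 0.02 to 3.04) stood higher. Ifitm3 had 151 and 155 UMIs (-0.13, -0.46 to 0.20). In oligodendrocytes 9 of 13 genes stood lower, against 47.6%, and Bst2 (27 and 6 UMIs) and Rtp4 (34 and 10) were past 1.5-fold lower, against 2.02%, with 0 higher, against 2.31%.

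In glutamatergic neurons 24 of 34 measured genes stood lower, against 57.3% of all genes measured, and 4 were past 1.5-fold lower and 0 higher, against 3.27% and 1.78%. These were Ifi44 (17 and 7 UMIs; -1.52, -3.03 to -0.17), Ifi207 (31 and 17; -1.10, -2.05 to -0.20), Slfn5 (118 and 82; -0.76, -1.19 to -0.34) and Bst2 (107 and 81; -0.64, -1.07 to -0.21). The endothelial marker genes Cldn5 and Flt1 stood in vehicle glutamatergic neurons at 2.05% and 1.72% of their endothelial level, and Slfn5 stood at 2.19%, Ifit1 at 2.83%, Ifitm3 at 2.93% and Bst2 at 3.87%. The part of free RNA in these levels was not tested.

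Herc6 and Stat2 did not follow the endothelial genes. Herc6 in vehicle glutamatergic neurons was at 93.9% of its endothelial level and Stat2 at 33.9%. Herc6 stood at 62.0 and 49.7 CPM (-0.32, -0.45 to -0.19) and Stat2 at 28.6 and 29.8 (0.06, -0.12 to 0.24). Leukocyte markers in these neurons stood at 59.8 and 32.0, and without the barcodes that held a UMI of them the ratio of the summed genes was -0.24, compared with -0.25 for all. The C1q genes stood at 404 and 315 CPM in glutamatergic neurons and at 669 and 464 in astrocytes. In GABAergic neurons 16 of 19 genes stood lower, against 52.6%, and 2 were past 1.5-fold lower (Trim30a and Parp9) and 0 higher, against 3.85% and 1.84%. In GABAergic neurons the C1q genes stood at 587 and 275 CPM and the leukocyte markers at 68.0 and 35.6, and their part in these differences was not tested. In striatal spiny neurons 6 of 15 stood lower and 0 were past 1.5-fold lower or higher, against 4.99% and 2.56% of all genes. Neuroblasts had 0 genes past it lower, against 2.61%, and 1 higher, against 2.46%, which was Ifit2 with 28 and 35 UMIs. Oligodendrocyte precursors had 0 past it lower, against 5.24%, and 1 higher, against 4.74%, which was Ifi27 with 68 and 81 UMIs.

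Blood leukocytes were fewer in the fluconazole library, 98 barcodes against 251, and their 20 markers summed to 25822 and 6589 CPM. The mix of leukocytes and the level of the genes cannot be told apart there. Of 33 measured genes, 29 stood lower, against 51.4% of all genes measured (48.6% stood higher), and 10 were past 1.5-fold lower and 0 higher, against 9.08% and 5.22%. Rsad2 had 81 UMIs and 1 UMI (-5.30, -10.62 to -2.78) and Ifit3 had 60 and 3 (-3.28, -5.60 to -1.67). Ifit1, also among the 10, had 34 and 0, so that no ratio is given for it. Ifitm3 stood at 919.8 and 987.5 CPM (0.10, -0.05 to 0.25), so not every gene stood lower.

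Read gene by gene, the breadth of the difference varied. Irf7 stood lower in all 7 classes in which it was measured, Isg15 in 9 of 10, Bst2 in 11 of 12 and Ifit3 in 8 of 9. Bst2 and Ifit3 were past 1.5-fold lower in 5 classes each. Gbp2 stood lower in 3 of 7 classes, Igtp in 3 of 6 and Irgm1 in 4 of 8. Stat2, Irf9 and Herc6 were not past 1.5-fold in any of the 13 classes.

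Interferon transcripts themselves were scarce. Over all kept barcodes, Ifnb1 had 1 and 2 UMIs, and the Ifna genes had 0 in both libraries. Ifng had 74 and 15, of which 73 and 15 were in blood leukocytes (-1.25). Ifnk, a type I interferon of epithelia, had 18 and 15.

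The receptors and kinases upstream did not follow the induced genes in microglia. Ifnar1 had 554 and 532 UMIs (-0.04), and Ifnar2 (-0.03), Ifngr1 (-0.04) and Ifngr2 were within 0.05 of 0. Jak1 (0.15), Jak2 (-0.03) and Tyk2 (0.02) did not pass 1.5-fold. In endothelial cells Ifnar1 had a ratio of -0.29. None of the 5 measured receptors passed 1.5-fold in microglia, endothelial cells, border macrophages, mural cells or fibroblasts.

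A second list of 83 further interferon-induced genes, none of them among the 38, was counted the same way. In microglia 56 of 67 measured stood lower and 11 were past 1.5-fold lower, against 50.2% and 2.66% of all genes, among them Ifi213 (-2.09), Oasl1 (-1.80) and Isg20, an RNA exonuclease, with 111 and 39 UMIs (-1.49). In endothelial cells 59 of 70 stood lower and 8 were past it, against 51.9% and 2.35%, Cxcl10, a chemokine that attracts T cells, having 174 and 96 UMIs (-0.99). In mural cells 33 of 45 stood lower and 8 were past it, against 48.1% and 3.26%. In border macrophages 44 of 59 stood lower, against 48.9%, with 6 past it lower and 3 higher, against 3.34% and 3.06%, of which Iigp1, a guanosine triphosphatase, had a ratio of 1.18. In fibroblasts 24 of 40 stood higher, against 49.0%, with 10 past 1.5-fold higher and 4 lower, against 4.11% and 6.99%. The second list thus pointed the same way as the 38 genes in each of these 5 classes. It too was chosen with earlier results of these data known and was counted in the same barcodes, so it is not independent support. None of the feedback inhibitors, the SOCS proteins and related phosphatases, passed 1.5-fold in microglia.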

How the data were processed

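The deposited files hold raw UMI counts per gene and barcode, per the file headers, with no normalization. Cell Ranger 8.0.1 is named in their header. The submitters' processing notes list build mm10 and the tools R 4.0.3, Seurat 4.0.0 and Cell Ranger 9.0.0. Intron counting, strand and the annotation release are not given in the sources used here. The genes and lists were chosen with earlier results of these data known.

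Kept barcodes had 500 or more genes and 5% or less of their UMIs from mitochondrial genes, and Scrublet doublets (expected rate 8%, 4.13% and 4.09% marked) were left out. Counts scaled to 10000, 2000 variable genes per library, 30 principal components, 15 neighbours and Leiden resolution 1 gave 37 clusters (Python 3.11.15, scanpy 1.11.5, scikit-learn 1.9.0, leidenalg 0.10.2). Clusters were named from at least 3 markers raised at least 2-fold and found in at least 10% of barcodes, and 7 clusters (7.87% and 8.86% of barcodes) stayed unnamed. A class needed 50 barcodes in both libraries, which 13 had. Genes past 1.5-fold were named in 7 classes, up to 10 each by size, and those printed beyond that rule were chosen after their values were seen. Intervals used scipy 1.17.1 and numpy 2.4.6 and were tested on simulated data, and figures used matplotlib 3.10.9.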

Additional observations from a re-analysis of the deposited data

Results flagged for a closer look

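The fibroblast class differed in direction from the other vascular classes. The median log2 ratio of its measured genes was 0.585, with 17 of 23 higher in the fluconazole library, while 37 of 37 genes stood lower in microglia and 26 of 29 in mural cells. The difference between the classes was not tested.

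The 2 fibroblast clusters made without interferon genes differed from each other in direction. The summed genes had a log2 ratio of 0.33 in cluster 24 and of -0.44 in cluster 28. This difference was not tested either, and 1 library per treatment allows no test of it.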

How the results depend on the processing

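No paired analysis was possible because there is 1 library per treatment. Over 14 alternatives per class the ratio of the summed genes ranged from -0.25 to -0.09 in endothelial cells, -0.53 to -0.07 in mural cells, -0.42 to -0.03 in border macrophages, -0.32 to -0.21 in glutamatergic neurons, -0.24 to -0.01 in astrocytes, -0.53 to 0.04 in microglia and -0.62 to 0.42 in fibroblasts. Scaling alternatives moved the median of all genes by at most 0.05. Where no cause is named, the cause was not tested. Counts of genes under an alternative are given without the share of all genes beside them.

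Leaving out barcodes with at least 5 of the genes, and those under 1500 UMIs, was chosen after seeing the data and removes the highest barcodes by construction. It gave ratios of -0.12 in microglia, -0.034 in border macrophages, -0.086 in endothelial cells, -0.068 in mural cells and -0.62 in fibroblasts. Genes lower were then 14 in border macrophages, 20 in endothelial cells, 12 in mural cells and 10 in astrocytes, and genes past 1.5-fold lower 5 in microglia, 1 in border macrophages, 1 in endothelial cells, 0 in mural cells and 0 in astrocytes. In fibroblasts 3 of 17 were higher and 1 past 1.5-fold.

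Leaving out barcodes with a leukocyte marker kept 128 (4.06%) and 73 (3.03%) microglia, which express Ptprc and Cd52 of that list. The ratio was 0.036 in microglia, with 4 of 10 genes lower and 0 past 1.5-fold, -0.19 in border macrophages, with 2 of 7 lower and 1 past it, and -0.25 in endothelial cells. With each cluster weighted equally the ratio was -0.53 in microglia and -0.16 in endothelial cells.

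With doublets kept the ratio was -0.40 in microglia, -0.12 in fibroblasts and -0.24 in astrocytes, with 7 genes past 1.5-fold lower in glutamatergic neurons and 8 in astrocytes. The sums were then 990.9 and 751 in microglia, 310.1 and 258 in glutamatergic neurons and 668 and 566 in astrocytes, and in the vehicle library 4580 in endothelial cells, 2066 in mural cells and 1299 in fibroblasts.

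Another alternative summed the thinned 1500 UMIs of each barcode in place of all its UMIs. The ratio was then -0.25 in endothelial cells, 0.42 in fibroblasts, -0.32 in glutamatergic neurons and 0.031 in GABAergic neurons. Fewer UMIs left fewer genes measured, with 10 of 15 lower in border macrophages, 10 of 13 in glutamatergic neurons and 5 of 10 in astrocytes. Past 1.5-fold lower were 2 in border macrophages, 5 in mural cells, 0 in glutamatergic neurons and 1 in astrocytes, and in fibroblasts 8 of 11 were higher and 3 past it. The sums were 2341 and 1660.2 in mural cells, 1096 and 1465 in fibroblasts, and in the fluconazole library 3905 in endothelial cells, 211 in glutamatergic neurons and 432 in astrocytes.

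Without Ifi207 the ratio was -0.42 in border macrophages, and without Ifitm3 it was 0.42 in fibroblasts. Stricter limits on detected genes and mitochondrial UMIs gave -0.24 in endothelial cells and 17 of 21 genes lower, 7 past 1.5-fold, in mural cells. In mural cells no filter gave -0.32, and Leiden resolution 2 gave -0.31 with 3 genes past 1.5-fold.

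A minimum of 50 UMIs left fewer genes: 6 past 1.5-fold lower in border macrophages, 17 of 19 lower and 6 past it in mural cells, 2 past it in glutamatergic neurons, 6 of 11 lower and 1 past it in astrocytes, and 9 of 12 higher and 4 past it in fibroblasts. With no minimum 26 of 38 were higher in fibroblasts, and 5 were past it lower in astrocytes.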

Other observations

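In clusters made without interferon genes, cluster 36, named microglial with 10 markers raised, held 3 vehicle and 10 fluconazole barcodes. It stood at 847 and 1695 CPM of the summed genes (1.00, 0.36 to 1.71), opposite to the 3 larger microglial clusters. Its second-ranked class was endothelial cells. In the clustering of all genes, a like cluster of 3 and 9 barcodes had 8 capillary, 3 arterial and 3 venous endothelial markers raised. The part of endothelial RNA in its sum was not tested. The leukocyte clusters 31, 32 and 34 stood at 3895 and 3380, at 1600 and 1035 and at 1045 and 790.2 CPM, each lower in the fluconazole library.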
